A study of Mus musculus with 5 samples.

Results

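The interleukin-2 (IL-2) pathway was followed here through 7 genes: Il2, which encodes the cytokine, the receptor chain genes Il2ra (alpha, CD25), Il2rb (beta, CD122) and Il2rg (common gamma), the transcription factor genes Stat5a and Stat5b, and Cish, a feedback inhibitor gene that STAT5 turns on. They were matched by symbol among the 32285 genes listed for each library, and all 7 were found in every library. Renca cells, a mouse renal adenocarcinoma line, were grown subcutaneously in Balb/c mice. From day 10 the mice received 2 doses of PBS or of antibodies against PD-1, CTLA-4 (both inhibitory receptors of T cells) and CD40 (an agonist, for a receptor of antigen-presenting cells), at 200 µg of each: PD1+CTLA4, PD1+CD40 and CD40+CTLA4 name the pairs, and Triplet had all of them. Sorted T cells, other immune cells and CD45-negative cells were mixed 24 h after the last dose, 3 mice were pooled per group, and 1 single-cell library was made per group.

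IL-2 is secreted mainly by activated T cells, and it acts on cells that carry its receptor. The beta and gamma chains transmit the signal through JAK1 and JAK3 to STAT5, and the alpha chain raises the affinity for IL-2 so that scarce cytokine can be captured. Regulatory T cells, which express the transcription factor Foxp3, carry the alpha chain constitutively, make little or no IL-2 themselves, and depend on IL-2 made by other T cells. NK cells and many CD8 T cells carry beta and gamma chains, which also serve IL-15. STAT5 induces Il2ra and Cish, so both genes are commonly read as signs of recent signalling.

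Promoter sequences of the ligand, the inducible receptor chain and the feedback gene are shown because these are the 3 members whose control is best known. They were taken from the RefSeq promoter table of build GRCm38.p6, in which 6 of the 7 genes had an entry (Il2rb had none). Il2 lies on chromosome 3, and the 250 bases before its start, chr3:37125955-37126204 on the minus strand, hold GGAAAA, the core recognised by NFAT, at 137 and, on the opposite strand, at 48 bases before the start (in capitals).
Il2: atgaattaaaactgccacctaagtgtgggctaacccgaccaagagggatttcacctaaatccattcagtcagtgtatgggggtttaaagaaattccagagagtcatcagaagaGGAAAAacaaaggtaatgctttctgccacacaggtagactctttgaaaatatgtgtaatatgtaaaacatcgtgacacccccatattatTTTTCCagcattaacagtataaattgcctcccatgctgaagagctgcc

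Il2ra lies on chromosome 2, and the 250 bases before its start are chr2:11642542-11642791 on the plus strand. The capitals mark 2 overlapping matches to the NF-kappaB motif, at 201 and 200 bases before the start.
Il2ra: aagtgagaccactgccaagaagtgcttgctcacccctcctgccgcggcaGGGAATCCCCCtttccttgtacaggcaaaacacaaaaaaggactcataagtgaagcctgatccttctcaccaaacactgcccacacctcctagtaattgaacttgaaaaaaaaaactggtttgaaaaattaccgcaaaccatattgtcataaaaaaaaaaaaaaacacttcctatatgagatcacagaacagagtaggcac

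Cish lies on chromosome 9, and the stretch shown, chr9:107296654-107296683 on the plus strand, spans its annotated start. The capitals mark 2 matches to the STAT motif TTCNNNGAA, which begin at bases 1 and 12 counted from the start.
Cish: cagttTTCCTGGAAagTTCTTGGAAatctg

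Each motif was searched on both strands in windows from 250 bases before to 50 bases after the start. Of 27025 promoter windows, 23.6% held GGAAAA and 3.70% held 2 or more matches, 8.18% held the NF-kappaB motif and 1.17% held 2 or more, and 8.47% held the STAT motif and 0.463% held 2 or more. The windows of Il2, Il2ra, Il2rg, Stat5a and Stat5b held no TTCNNNGAA. Stat5a and Stat5b lie side by side on chromosome 11, on opposite strands. These matches describe the letters in the windows and are no evidence of binding.

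The cells used numbered 4404 in PBS, 9999 in PD1+CTLA4, 16884 in PD1+CD40, 16389 in CD40+CTLA4 and 4732 in Triplet, with median depths between 1422 UMIs (molecules counted by their barcodes) in PD1+CD40 and 13124 in Triplet. T cells numbered 572, 2505, 439, 417 and 1202 in the same order, and their median depths were close, from 2573 to 2936 UMIs. The T cell part of the sort was meant to make up the largest fraction, but only 439 of 16884 and 417 of 16389 cells passed the T cell gate in PD1+CD40 and CD40+CTLA4. As labelled, 10000 cells were loaded per library, fewer than the barcodes counted as cells in PD1+CD40 and CD40+CTLA4. The part of barcodes without a captured cell in the values of these libraries was not tested. The PBS library stood apart: its counts came from another version of Cell Ranger, and 78.4% of its T cell receptor UMIs fell on variable segments against 3.85% to 5.36% in the other 4. The library's preparation and the absence of antibody cannot be told apart, and this holds for every value set beside PBS. At most 0.490% of a library's cell barcodes recurred in another, and at most 2 of those shared by any pair of libraries had a class in both.

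Cells were assigned to classes by marker gates. Foxp3-positive T cells (167, 390, 127, 70 and 306 cells in PBS, PD1+CTLA4, PD1+CD40, CD40+CTLA4 and Triplet) also carried Ikzf2 at 687 to 1876 and Ctla4 at 462 to 718 CPM (UMIs of the gene per 1000000 UMIs of the class), both typical of regulatory T cells. NK cells carried Ncr1 at 1324 to 1793 CPM in the 4 libraries with at least 30 of them. Mature dendritic cells (88, 151, 310, 364 and 67 cells) carried Ccl22 at 1454 to 2362 CPM. CD8 cells in PD1+CD40 (41 cells) held 1557 CPM of the NK and cytotoxic gene Gzma, against 19.6 to 223 CPM in the other libraries. In the Foxp3-positive class 8 or 9 of 9 myeloid genes were detected, and their sum was 494, 513, 772, 885 and 767 CPM in PBS, PD1+CTLA4, PD1+CD40, CD40+CTLA4 and Triplet. The sums of 3 other lists ran from 29.0 to 405 CPM for 4 tumour genes, 14.8 to 308 for 4 neutrophil genes and 3.62 to 257 for 6 NK genes. Of the defining markers, Krt8, Ncr1, Klre1 and Klrb1c were at 0 in both PD1+CD40 and CD40+CTLA4. Klre1 was also at 0 in PBS and Triplet, and Eomes in PBS, CD40+CTLA4 and Triplet. The part of such RNA in the values that follow was not tested. With 1 library per group no difference between groups could be tested. Intervals in parentheses are exact 95% intervals and cover counting error only.

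**Figure D1:**
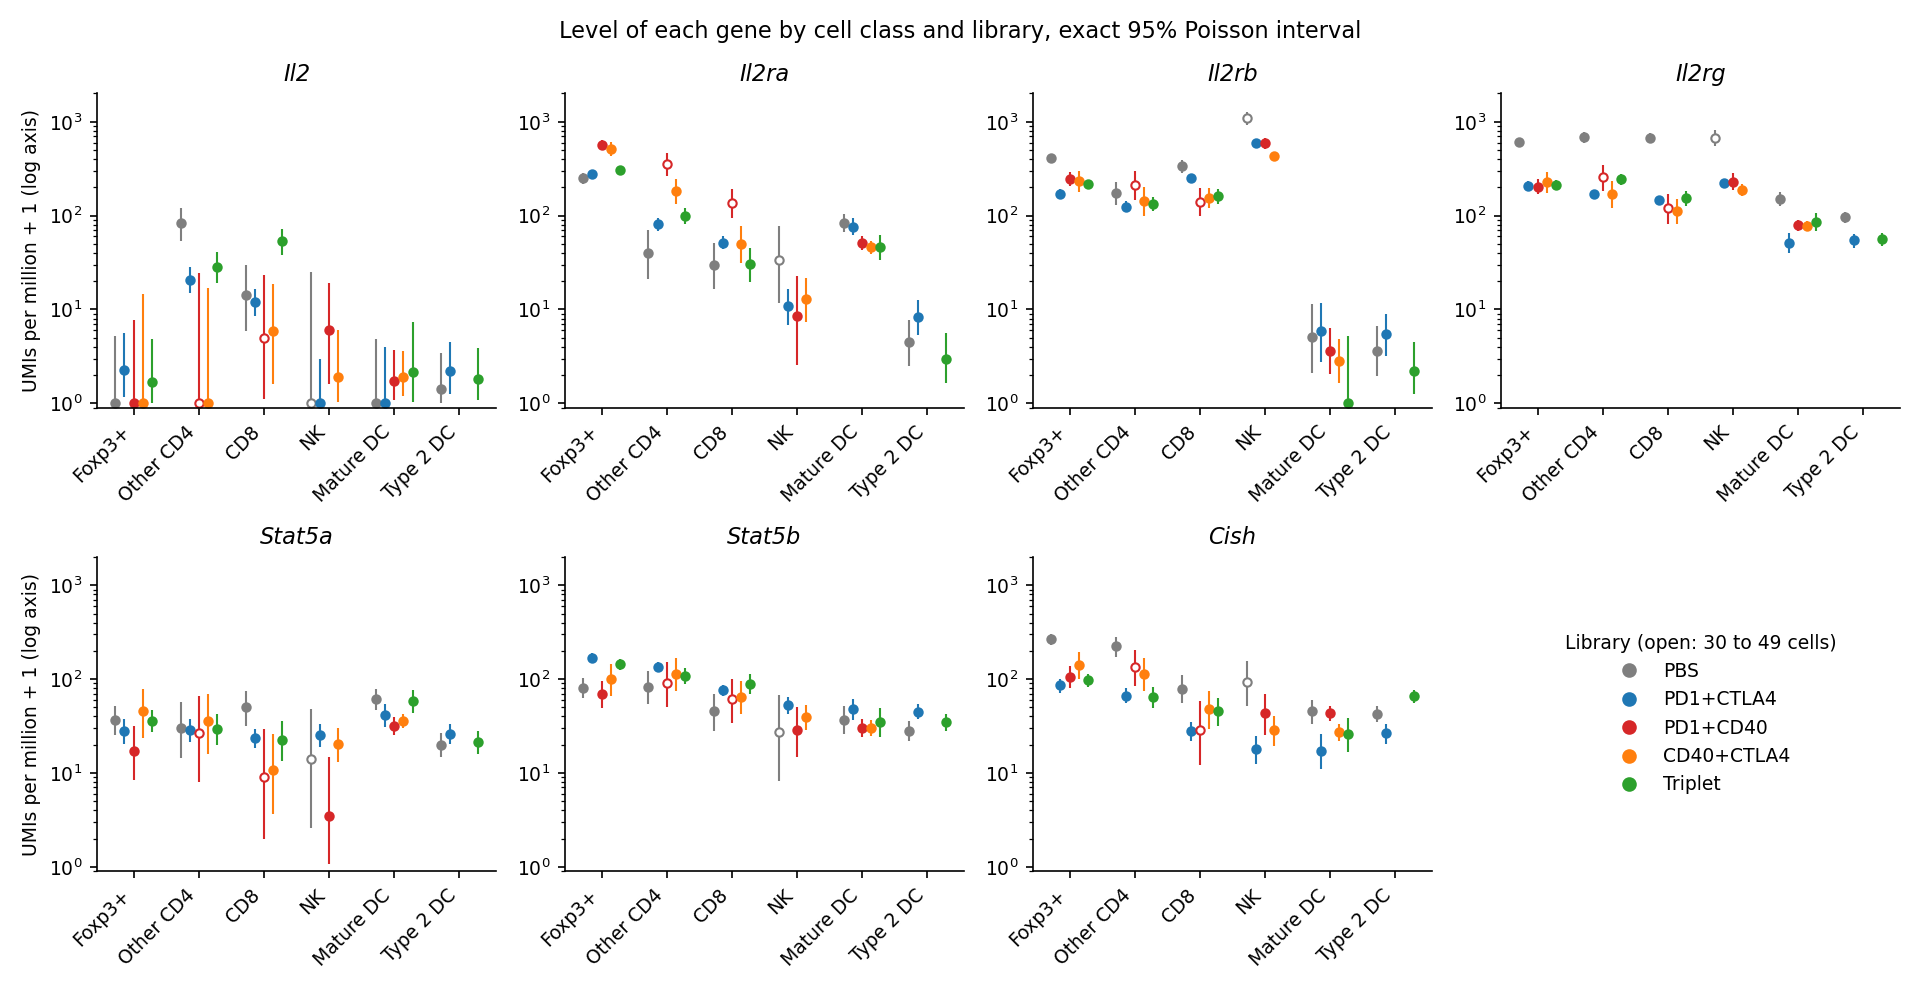
Level of the 7 genes (CPM plus 1, log axis) in Foxp3-positive, other CD4 and CD8 T cells, NK cells, mature and type 2 dendritic cells of the 5 libraries, with exact 95% Poisson intervals and open symbols for 30 to 49 cells. Il2ra was highest in Foxp3-positive cells in each library, and Il2rb in NK cells of the 4 libraries with at least 30 of them.

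Il2, the ligand, was higher in T cells of PBS, PD1+CTLA4 and Triplet than in those of PD1+CD40 and CD40+CTLA4. Over all T cells it stood at 19.5 CPM (14.4 to 25.8) in PBS, 26.3 (23.3 to 29.7) in PD1+CTLA4, 2.97 (0.964 to 6.93) in PD1+CD40, 2.30 (0.627 to 5.90) in CD40+CTLA4 and 20.7 (17.0 to 25.1) in Triplet. These values rested on 48, 275, 5, 4 and 106 UMIs. The intervals of PD1+CD40 and CD40+CTLA4 overlapped each other and lay below those of the other 3 libraries. The level in Triplet T cells was 6.98 times (2.90 to 22.0) that in PD1+CD40 and 9.00 times (3.42 to 33.7) that in CD40+CTLA4.

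Few cells carried the message. An Il2 UMI was seen in 38 of 572 T cells in PBS, 88 of 2505 in PD1+CTLA4, 5 of 439 in PD1+CD40, 3 of 417 in CD40+CTLA4 and 56 of 1202 in Triplet, which were 6.64%, 3.51%, 1.14%, 0.719% and 4.66%. In PD1+CTLA4 a single T cell held 158 of the 275 UMIs, and in Triplet a single cell held 27 of 106. Without the top cell of each library the levels were 17.5, 11.2, 2.38, 1.15 and 15.5 CPM. The order of Triplet and PD1+CTLA4 turned on that cell: Triplet was 0.79 times PD1+CTLA4 (0.62 to 0.99) with the top cells and 1.38 times (1.02 to 1.85) without them. Without top cells Triplet remained 6.51 times (2.44 to 24.5) PD1+CD40, and PD1+CTLA4 was 4.72 times (1.80 to 17.6) PD1+CD40 and 9.74 times (2.64 to 81.4) CD40+CTLA4.

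To compare shares at 1 depth, 1000 UMIs were drawn at random from each cell (thinning), which left 551, 2433, 422, 405 and 1189 T cells that were deep enough. An Il2 UMI was then found in 2.00% of T cells in PBS, 1.32% in PD1+CTLA4, 0.237% in PD1+CD40, 0.247% in CD40+CTLA4 and 2.35% in Triplet. The shares in PD1+CD40 (0.0060% to 1.31%) and CD40+CTLA4 (0.0063% to 1.37%) rested on 1 cell each, and their intervals overlapped that of PD1+CTLA4 (0.90% to 1.85%) but not that of Triplet (1.57% to 3.39%). Macrophages, taken as the background class, held Il2 at 0.0517, 0.812, 0.977, 0.984 and 1.52 CPM, and 0.0602% to 2.66% of them had an Il2 UMI at median depths of 1984 to 16162 UMIs. The intervals of the T cell level in PD1+CD40 and CD40+CTLA4 included the macrophage level of the same library. T cells held 85.7% of a library's Il2 UMIs in PBS, 66.9% in PD1+CTLA4 and 46.9% in Triplet, and 6.76% and 4.26% in PD1+CD40 and CD40+CTLA4.

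**Figure D2:**
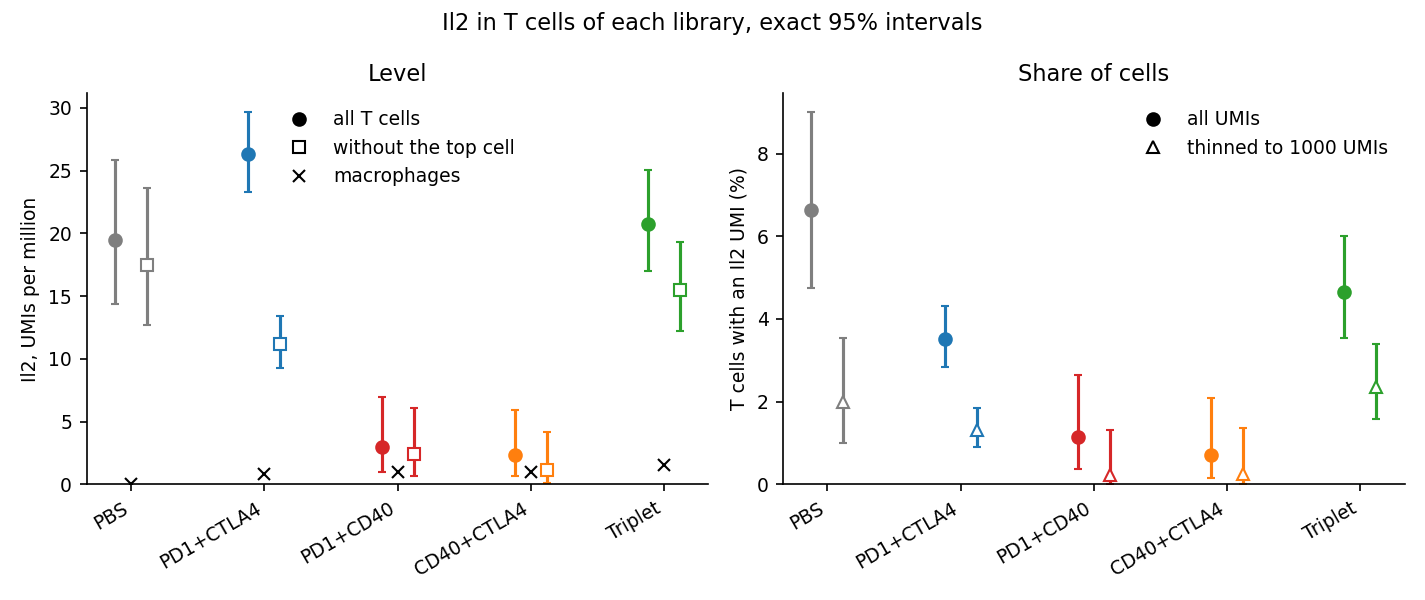
Il2 in T cells by library: left, level in CPM with and without the cell holding most Il2 UMIs, and in macrophages (crosses); right, percent of T cells with an Il2 UMI before and after thinning to 1000 UMIs, with exact 95% intervals. PD1+CD40 (2.97 CPM) and CD40+CTLA4 (2.30 CPM) lie below the other 3 libraries.

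Among the gated T cell classes, the other CD4 cells held Il2 at 81.6 CPM in PBS, 19.8 in PD1+CTLA4 and 27.3 in Triplet. No Il2 UMI was found in the 49 other CD4 cells of PD1+CD40 or the 52 of CD40+CTLA4, where 3 UMIs would make 19.2 and 13.0 CPM. In CD8 cells the level was 13.3 CPM in PBS, 11.0 in PD1+CTLA4, 3.98 in PD1+CD40, 4.91 in CD40+CTLA4 and 52.4 in Triplet. The high Triplet value came largely from 1 cell with 27 of the 39 UMIs, and 1 cell held 17 of the 31 UMIs in PD1+CTLA4. Foxp3-positive cells held 0, 2, 0, 0 and 1 Il2 UMIs, and their level was below that of CD8 cells in 4 of 4 libraries with at least 50 cells of both classes (mean log2 difference -1.89 ± 1.03 SD on CPM plus 5; exact two-sided sign-flip permutation p = 0.125, adjusted p = 0.50 over 28 tests, n = 4). With 4 libraries 0.125 is the smallest p this test can give.

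Il2ra, the alpha chain, was higher in Foxp3-positive cells than in the other T cell classes of every library. It stood there at 249 CPM (217 to 284) in PBS, 280 (254 to 307) in PD1+CTLA4, 565 (504 to 632) in PD1+CD40, 516 (434 to 609) in CD40+CTLA4 and 303 (275 to 333) in Triplet. In other CD4 cells it was 39.2, 80.0, 352, 182 and 98.2 CPM, and in CD8 cells 28.9, 50.6, 135, 49.1 and 29.5 CPM. The mean log2 difference was 1.83 ± 0.47 (SD) against other CD4 cells and 2.92 ± 0.41 against CD8 cells, in 4 of 4 libraries (exact permutation p = 0.125 for both, adjusted p = 0.50, n = 4; PD1+CD40 had under 50 cells in both comparison classes). With classes of at least 30 cells, a minimum chosen after seeing the data, all 5 libraries entered and the differences were 1.60 and 2.74, each with an exact permutation p = 0.062, the smallest that 5 libraries allow (adjusted p = 0.292, n = 5).

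Between libraries, Foxp3-positive cells fell into a high pair, PD1+CD40 and CD40+CTLA4, and a low trio whose intervals did not reach theirs. PD1+CD40 was 2.02 times PD1+CTLA4 (1.74 to 2.34) and CD40+CTLA4 was 1.85 times (1.52 to 2.24). Triplet, which includes the same agonistic anti-CD40, was 1.08 times PD1+CTLA4 (0.95 to 1.24), 0.54 times PD1+CD40 (0.46 to 0.62) and 0.59 times CD40+CTLA4 (0.48 to 0.71). The share of Foxp3-positive cells with an Il2ra UMI was also higher in PD1+CD40 and CD40+CTLA4 than in the other 3 libraries: 46.7%, 49.2%, 69.3%, 70.0% and 54.9% in PBS, PD1+CTLA4, PD1+CD40, CD40+CTLA4 and Triplet, and 23.3%, 23.6%, 41.1%, 37.7% and 27.9% after thinning, which left out 1 to 8 cells per library. Of the low trio, the thinned interval of PD1+CD40 (32.4% to 50.3%) overlapped that of Triplet (22.9% to 33.3%) alone. That of CD40+CTLA4 (26.3% to 50.2%) overlapped those of PBS (17.1% to 30.6%), PD1+CTLA4 (19.4% to 28.1%) and Triplet. In macrophages the thinned share was 0.0607% to 0.852%.

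Over 12 alternatives the log2 ratio of PD1+CD40 to PD1+CTLA4 ran from 0.41 to 1.13 around 1.00, above 0 in all 12, and it was lowest when T cells were taken from clusters. Cells chosen in that way held the macrophage gene Lyz2 at 2801, 5225, 8673, 8972 and 4749 CPM, against 114, 105, 303, 262 and 251 CPM in the gated class, and Il2ra at 251, 204, 274, 255 and 201 CPM. The mature dendritic cell genes Ccl22 (134, 5.13, 159, 457 and 1.40 CPM) and Fscn1 (230, 7.05, 109, 203 and 4.90 CPM) were also higher in the Foxp3-positive class of PBS, PD1+CD40 and CD40+CTLA4. After T cells with a UMI of Fscn1, Ccl22 or Il4i1 were left out, Il2ra in Foxp3-positive cells was 271, 298, 578, 579 and 304 CPM. After thinning to 1000 UMIs a cell it was 484 CPM (369 to 623) in PD1+CD40 and 565 (402 to 773) in CD40+CTLA4. Both intervals then overlapped that of Triplet (293 to 431), and PD1+CD40 also those of PBS (217 to 390) and PD1+CTLA4 (275 to 393).

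The difference was not limited to Foxp3-positive cells. In other CD4 cells Il2ra in CD40+CTLA4 was 2.27 times PD1+CTLA4 (1.57 to 3.23). Some T cells fell outside the gated classes, with no UMI of Cd4, Cd8 or Foxp3, or with Cd8 beside Cd4 or Foxp3. Among them PD1+CD40 (270 CPM) was 3.20 times PD1+CTLA4 (84.5 CPM, interval 2.67 to 3.81). CD40+CTLA4 (133 CPM) was 1.57 times PD1+CTLA4 there (1.26 to 1.95), and Triplet (119 CPM) was 0.89 times CD40+CTLA4 (0.71 to 1.13), so CD40+CTLA4 did not stand apart from Triplet in these cells. In other CD4 cells the regulatory T cell genes Ikzf2 (68.6, 565, 1543, 913 and 713 CPM) and Ctla4 (75.1, 199, 608, 307 and 234 CPM) had the same order of libraries as Il2ra, and their part in it was not tested. In CD8 cells the 61 cells of CD40+CTLA4 and the 477 of PD1+CTLA4 had overlapping levels (49.1 and 50.6 CPM).

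**Figure D3:**
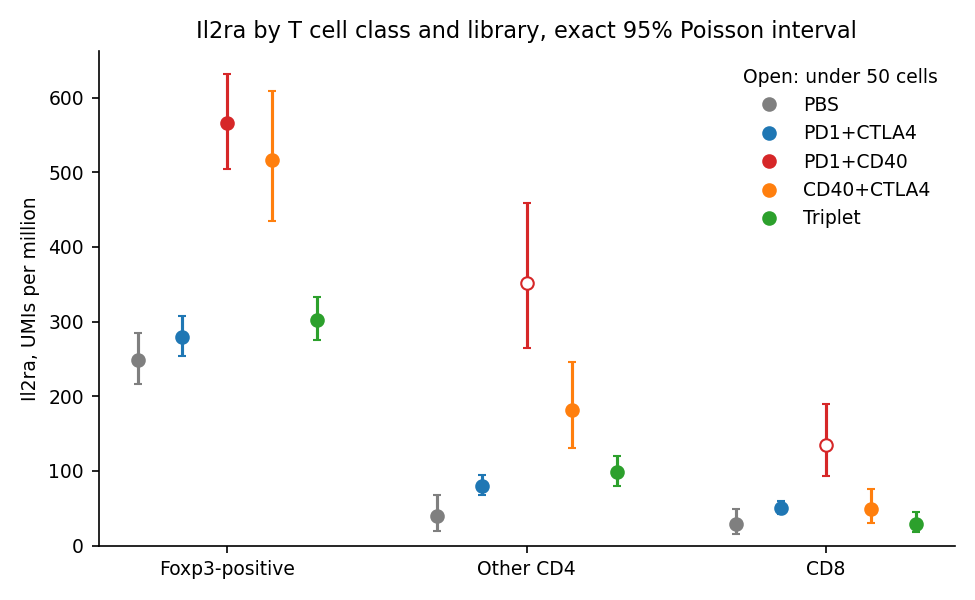
Il2ra (CPM) in Foxp3-positive, other CD4 and CD8 T cells by library, with exact 95% Poisson intervals and open symbols for classes under 50 cells. Foxp3-positive cells of PD1+CD40 (565) and CD40+CTLA4 (516) lie above those of the other 3 libraries (249 to 303).

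Outside T cells, Il2ra was present in mature dendritic cells, the Ccr7-expressing form that migrates to lymph nodes. It stood at 82.3, 75.3, 50.4, 44.8 and 45.4 CPM there, and at 3.45 CPM in type 2 dendritic cells of PBS, 7.28 in PD1+CTLA4 and 1.99 in Triplet. Mature cells were higher in 3 of 3 libraries that held at least 50 of both, by 2.98 ± 0.35 (SD) on the log2 scale (exact permutation p = 0.25, the smallest possible, adjusted p = 0.54, n = 3). The highest values were in PBS and PD1+CTLA4, which held the lowest values in Foxp3-positive cells. The 9 myeloid genes summed to 2655 and 2177 CPM in mature cells of these libraries, against 7739, 9386 and 4894 CPM in PD1+CD40, CD40+CTLA4 and Triplet, and their part was not tested. Macrophages held 0.569 to 3.98 CPM.

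Il2rb, the beta chain, was highest in NK cells, at 1091 CPM in PBS (46 cells), 595 in PD1+CTLA4, 587 in PD1+CD40 and 429 in CD40+CTLA4. NK cells exceeded CD8 cells in both libraries with at least 50 of each, by 1.34 ± 0.15 (SD) on the log2 scale (exact permutation p = 0.50, the smallest possible, n = 2). In Foxp3-positive cells it was 405, 171, 245, 232 and 215 CPM, in CD8 cells 336, 250, 139, 155 and 161, and in other CD4 cells 173, 124, 211, 143 and 133. Foxp3-positive cells were above other CD4 cells in 4 of 4 libraries, by 0.75 ± 0.32 (exact permutation p = 0.125, adjusted p = 0.50, n = 4). Mature dendritic cells held at most 4.86 CPM of Il2rb.

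Il2rg, the gamma chain shared with other cytokines, was the evenest member across lymphocytes. Among the 4 antibody libraries it ran from 203 to 225 CPM in Foxp3-positive cells, 168 to 256 in other CD4 cells, 110 to 152 in CD8 cells and 186 to 229 in NK cells of the 3 libraries with at least 50 of them. In PBS it was 602, 683, 674 and 670 CPM in those 4 classes. Foxp3-positive and other CD4 cells did not differ in a constant direction (log2 difference 0.08 ± 0.31 SD, higher in 2 of 4 libraries, exact permutation p = 0.625, n = 4). Mature dendritic cells held 50.2 to 150 CPM and macrophages 56.5 to 96.2 CPM.

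The chains were then read together in single cells. A UMI of each of the 3 chains was found in 29.3%, 17.9%, 26.0%, 18.6% and 19.6% of Foxp3-positive cells in PBS, PD1+CTLA4, PD1+CD40, CD40+CTLA4 and Triplet. In NK cells Il2rb and Il2rg without Il2ra were found in 29.9% of cells in PD1+CTLA4, 47.4% in PD1+CD40 and 53.1% in CD40+CTLA4, and at most 2.58% of NK cells in these libraries had all 3. Mature dendritic cells showed another pattern, Il2ra without Il2rb, in 34.1%, 29.1%, 22.6%, 20.3% and 26.9% of cells, with all 3 chains in at most 1.14%. The median depth of mature dendritic cells was 7947 to 11829 UMIs, above the 2586 to 3259 of Foxp3-positive cells; these shares are not thinned, and a chain with no UMI in a cell may still be expressed.

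**Figure D4:**
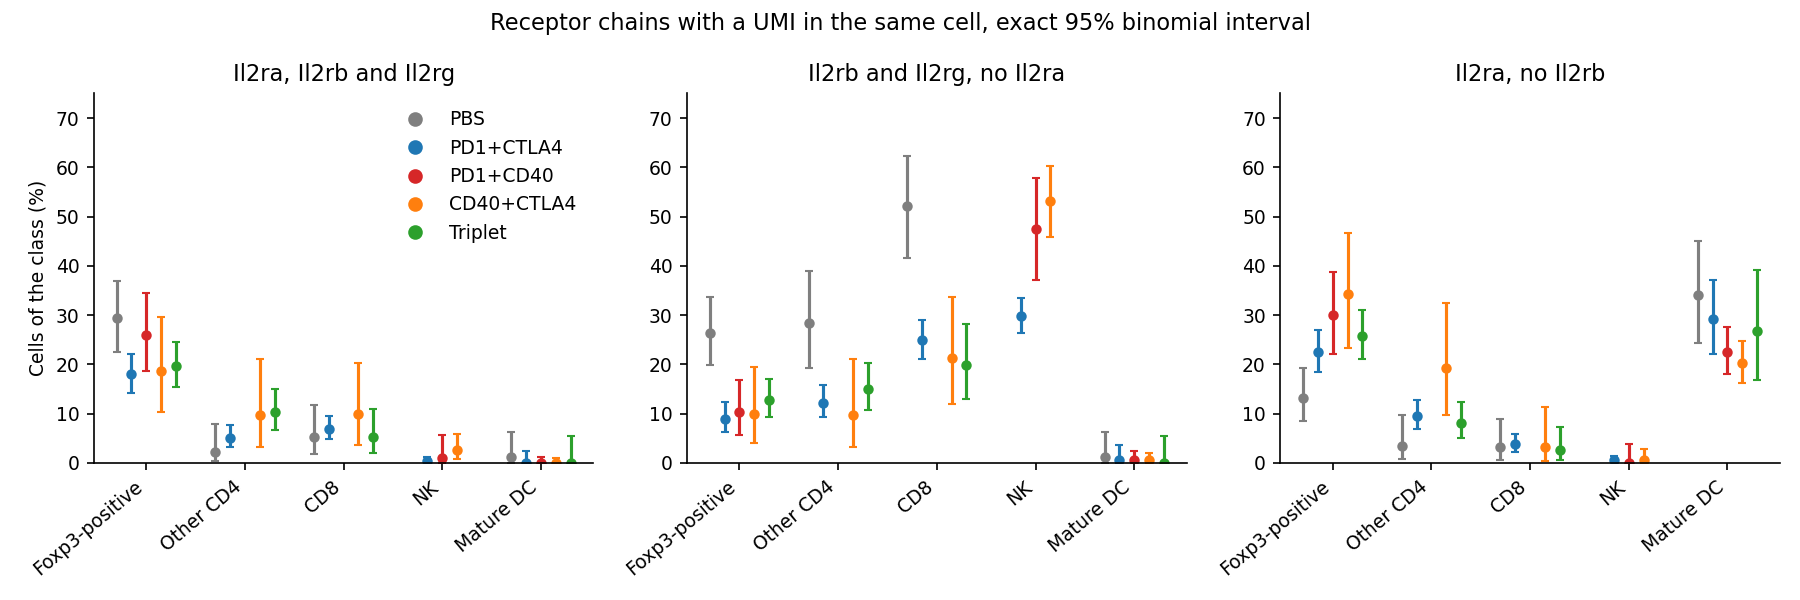
Percent of cells with UMIs of all 3 receptor chains, of Il2rb and Il2rg without Il2ra, and of Il2ra without Il2rb, by class and library (classes of at least 50 cells), with exact 95% binomial intervals. All 3 chains were most frequent in Foxp3-positive cells (17.9% to 29.3%), and Il2ra without Il2rb was found in 20.3% to 34.1% of mature dendritic cells.

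Stat5b, which with Stat5a carries the receptor signal to the nucleus, differed between libraries in Foxp3-positive cells. Its level was 79.4 CPM in PBS, 168 in PD1+CTLA4, 68.9 in PD1+CD40, 99.6 in CD40+CTLA4 and 144 in Triplet. PD1+CD40 was 0.41 times PD1+CTLA4 (0.28 to 0.58), and Triplet was 2.09 times PD1+CD40 (1.47 to 3.03). The fall in PD1+CD40 was at least 2-fold under 12 of 12 alternatives (log2 -1.58 to -1.01). Cells outside the T lineage had much the same order: Stat5b in macrophages was 19.6, 38.8, 17.1, 17.5 and 28.6 CPM, and in tumour cells 25.4, 48.3, 14.4, 22.3 and 41.4 CPM. The part that this shared order had in the Foxp3-positive values was not tested.

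Stat5b was higher in Foxp3-positive than in CD8 cells in 4 of 4 libraries, by 0.79 ± 0.23 (SD) on the log2 scale (exact permutation p = 0.125, adjusted p = 0.50, n = 4). Stat5a was low in T cells, at 35.7, 26.9, 16.3, 44.3 and 35.0 CPM in Foxp3-positive cells. The intervals of these levels overlapped, but the ratio of Triplet to PD1+CD40 was 2.15 (1.05 to 4.97), on 50 and 9 UMIs. In mature dendritic cells Stat5a was 59.7, 40.5, 30.6, 35.0 and 56.7 CPM. That was above Foxp3-positive cells in 4 of 5 libraries and below them in CD40+CTLA4. Mature exceeded type 2 dendritic cells in 3 of 3 libraries, by 1.11 ± 0.45 (exact permutation p = 0.25, the smallest possible, adjusted p = 0.54, n = 3). Il2rb was low in both kinds, at 0 to 4.86 CPM in mature and 1.19 to 4.45 CPM in type 2 cells.

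Cish, the feedback gene, was higher in Foxp3-positive than in CD8 T cells of each library. It stood at 266, 84.6, 105, 140 and 96.0 CPM in Foxp3-positive cells, 222, 65.8, 134, 113 and 62.8 in other CD4 cells, and 77.9, 26.7, 27.9, 46.6 and 44.3 in CD8 cells. Foxp3-positive cells were above CD8 cells in 4 of 4 libraries by 1.43 ± 0.28 (SD) on the log2 scale, and above other CD4 cells by 0.37 ± 0.14 (exact permutation p = 0.125 and adjusted p = 0.50 for both, n = 4). With the 49 other CD4 cells of PD1+CD40 included, the second difference was 0.23 and held in 4 of 5 libraries. Against PD1+CTLA4, Cish in Foxp3-positive cells was 1.24 times (0.90 to 1.70) in PD1+CD40, 1.66 times (1.12 to 2.39) in CD40+CTLA4 and 1.13 times (0.89 to 1.45) in Triplet.

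Within a library, Cish was then compared between Foxp3-positive cells with and without an Il2ra UMI. In Foxp3-positive cells with an Il2ra UMI, Cish stood at 329 CPM in PBS, 107 in PD1+CTLA4, 118 in PD1+CD40, 131 in CD40+CTLA4 and 119 in Triplet. In those without one it was 192, 52.3, 58.9, 182 and 54.7 CPM. The ratios were 1.71 (1.30 to 2.28), 2.04 (1.36 to 3.12), 2.00 (0.90 to 5.23), 0.72 (0.33 to 1.73) and 2.18 (1.43 to 3.43), so the interval lay above 1 in 3 of 5 libraries, and in CD40+CTLA4, with 21 cells lacking an Il2ra UMI, the estimate went the other way. Cells with an Il2ra UMI were deeper (median 3098 to 4024 against 1781 to 2798 UMIs). In mature dendritic cells the same ratio was 0.78, 2.17, 0.72, 0.50 and 0.80, with an interval excluding 1 in CD40+CTLA4 alone (0.24 to 0.94). Socs2, another STAT5 target, was higher in mature dendritic cells with an Il2ra UMI in each library, with every interval above 1. Its ratios there were 1.67, 1.29, 3.75, 3.26 and 2.55. Genes outside the lists were also higher there in each library: Tnfrsf4 at 2.78, 1.27, 3.19, 2.63 and 2.05 times, on 3 to 13 UMIs, and Stat5b at 2.69, 1.06, 1.68, 1.24 and 1.17 times. Il2rg was mixed (1.45, 0.96, 1.17, 1.20 and 0.80 times). Whether the Socs2 values are particular to STAT5 targets, and the part of the myeloid genes in this split, were not tested.

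**Figure D5:**
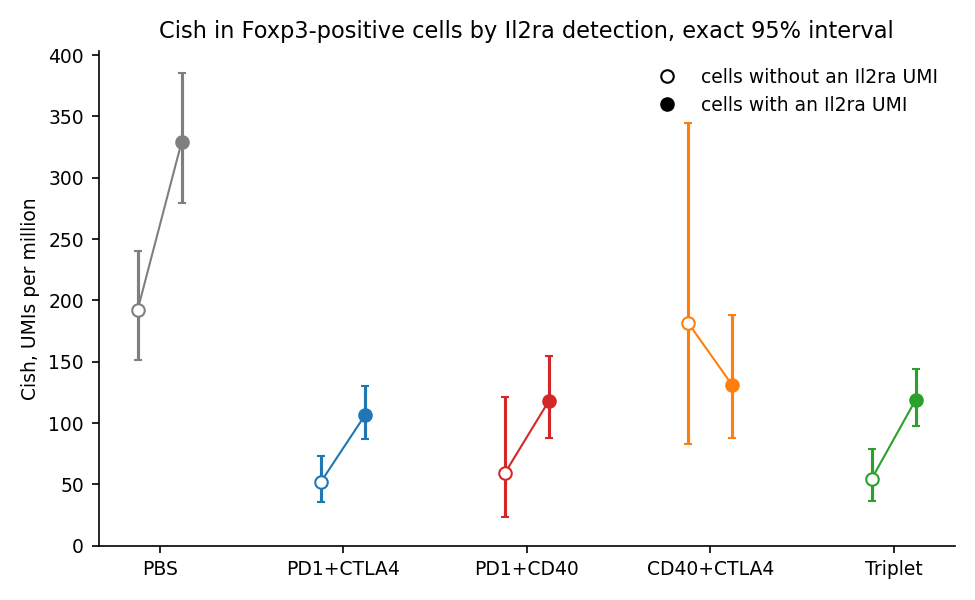
Cish (CPM) in Foxp3-positive cells without (open) and with (filled) an Il2ra UMI in each library, with exact 95% Poisson intervals. The filled point is the higher in PBS, PD1+CTLA4, PD1+CD40 and Triplet and the lower in CD40+CTLA4.

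Cish was also read in NK and dendritic cells. In NK cells Cish was 16.8 CPM in PD1+CTLA4, 42.3 in PD1+CD40 and 27.5 in CD40+CTLA4, and PD1+CD40 was 2.52 times PD1+CTLA4 (1.31 to 4.69). In mature dendritic cells it was 44.3, 16.2, 42.6, 26.0 and 25.0 CPM, and PD1+CD40 was 2.63 times PD1+CTLA4 (1.63 to 4.47). The part of the myeloid genes in these mature cells, given above for Il2ra, was not tested for Cish; macrophages held 14.7 to 19.8 CPM of Cish. In type 2 dendritic cells Triplet (64.4 CPM) was 2.53 times PD1+CTLA4 (25.5 CPM; 1.88 to 3.44). That the response of NK or dendritic cells differed from that of T cells was not tested.

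Members were counted as past 2-fold between libraries where log2 of CPM plus 5 differed by at least 1 and the interval of the ratio excluded 1, and the same count over all genes with at least 20 UMIs is the background. For Triplet against PD1+CTLA4, 0 members passed in Foxp3-positive cells (background 2.89% of genes) and 0 in other CD4 cells (4.64%), and in CD8 cells only Il2 did (3.14%), at 4.74 times (2.88 to 7.86). That ratio fell to a log2 of -0.10 in a single random thinning to 1000 UMIs a cell. In the separate thinning behind the shares of cells, 5 of 115 Triplet CD8 cells held Il2 (4.35%), against 6 of 473 in PD1+CTLA4 (1.27%). For PD1+CD40 against PD1+CTLA4 in Foxp3-positive cells, Il2ra and Stat5b passed (8.82%), in opposite directions. Il2ra stayed at or past 2-fold under 3 of 12 alternatives and Stat5b under 12 of 12. For CD40+CTLA4 against PD1+CTLA4, 0 members passed in Foxp3-positive (6.62%) and CD8 cells (5.41%), and Il2ra (higher) and Il2 (lower) passed in other CD4 cells (8.53%).

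For Triplet against PD1+CD40 in Foxp3-positive cells, only Stat5b passed (4.77%), and it stayed at or past 2-fold under 4 of 12 alternatives. The intervals of Il2ra (0.54 times, 0.46 to 0.62) and Stat5a (2.15 times, 1.05 to 4.97) also excluded 1. Their log2 of CPM plus 5 differed by less than 1. Against CD40+CTLA4, 0 members passed in Foxp3-positive cells (4.98%), and Il2 was higher in Triplet in other CD4 cells (6.56%) and in CD8 cells (8.33%). For PD1+CTLA4 against PBS, 4 members passed in Foxp3-positive cells (20.4%), 3 in other CD4 cells (20.2%) and 2 in CD8 cells (19.3%). Lower in PD1+CTLA4 were Il2rg (0.34, 0.25 and 0.22 times in the 3 classes), Cish (0.32, 0.30 and 0.34 times), Il2rb in Foxp3-positive cells (0.42 times) and Il2 in other CD4 cells (0.24 times). Stat5b was higher in Foxp3-positive cells (2.11 times). Treatment and library preparation cannot be told apart in these values.

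Other genes of the pathway were read from 4 lists. Of 10 other gamma-chain cytokine and receptor genes, 5 or fewer had 20 UMIs in Foxp3-positive cells of any comparison, and among the antibody libraries only Il7r, the IL-7 receptor alpha chain, passed. It stood at 341 CPM in PD1+CTLA4, 526 in PD1+CD40, 561 in CD40+CTLA4 and 257 in Triplet, so Triplet was lower than PD1+CD40 (log2 -1.02) and CD40+CTLA4 (-1.11). Of all genes, 4.77% and 4.98% passed in these comparisons. Among the antibody libraries Il7r, like Il2ra, was highest in PD1+CD40 and CD40+CTLA4, but neither passed for Il7r against PD1+CTLA4. Of 5 kinases and adaptors in Foxp3-positive cells, Jak1 (278, 172, 254 and 257 CPM in PD1+CTLA4, PD1+CD40, CD40+CTLA4 and Triplet) and Jak3 (14.7, 21.7, 25.8 and 21.0 CPM) did not pass among the antibody libraries, while Syk (lower in PD1+CD40 than in PD1+CTLA4, log2 -1.20) and Shc1 (higher in CD40+CTLA4, 1.13) did on 2 to 23 UMIs a library. Against PD1+CTLA4, 8.82% of all genes passed in PD1+CD40 and 6.62% in CD40+CTLA4.

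Of the IL-2 and STAT5 response genes measured in Foxp3-positive cells, 0 of 15 were higher and 2 lower in PD1+CD40 than in PD1+CTLA4, 0 of 14 higher and 2 lower in CD40+CTLA4, and 0 of 16 higher and 1 lower in Triplet. Over all genes measured in these comparisons, 644 of 8445, 389 of 8153 and 183 of 9411 were lower. The survival gene Bcl2 was the lower one in all 3, at 59.0 CPM in PD1+CTLA4 and 10.9, 22.1 and 25.2 CPM in PD1+CD40, CD40+CTLA4 and Triplet. Bcl6, a repressor that STAT5 opposes, was at 23.1 CPM in PD1+CTLA4, 5.44 in PD1+CD40 and 0 UMIs in CD40+CTLA4. These Bcl2 and Bcl6 values rest on few UMIs: 3 UMIs make 5.44 CPM in PD1+CD40 and 11.1 CPM in CD40+CTLA4. The list's median log2 ratio was -0.33, -0.02 and -0.22 in these comparisons, beside -0.18, -0.11 and -0.09 over all genes. In other CD4 cells Lta, a cytokine of activated lymphocytes, was lower than in PD1+CTLA4 (64.7 CPM) in Triplet (22.3 CPM) and CD40+CTLA4 (17.3 CPM). Socs3 was higher in CD40+CTLA4 than in PD1+CTLA4 there (51.9 against 22.7 CPM). In these cells of CD40+CTLA4, 3 UMIs would make 13.0 CPM. Against PD1+CTLA4, 4.64% of all genes passed in Triplet and 8.53% in CD40+CTLA4.

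The 9 regulators of Il2 transcription were read in each T cell class. In other CD4 cells of CD40+CTLA4, Crem, which encodes a repressor of Il2, was higher than in PD1+CTLA4 (156 against 49.9 CPM, log2 1.55). The other 8 did not pass, and 8.53% of all genes passed in this comparison. No Il2 UMI was found in these 52 cells, and the part of Crem in that was not tested. In Triplet against CD40+CTLA4, Fos was lower in other CD4 cells (43.5 against 143 CPM), where 6.56% of all genes passed. In CD8 cells Jun was higher in Triplet (95.3 CPM) than in PD1+CTLA4 (44.9 CPM) and CD40+CTLA4 (36.8 CPM), and Rel was lower in CD40+CTLA4 than in PD1+CTLA4 (58.9 against 126 CPM). Of all genes, 3.14%, 8.33% and 5.41% passed in these comparisons, in this order. The NFAT gene Nfatc2 was lower in Foxp3-positive cells of CD40+CTLA4 than of PD1+CTLA4 (14.8 against 49.4 CPM, log2 -1.46). There 3 UMIs would make 11.1 CPM in CD40+CTLA4, and 6.62% of all genes passed. In Triplet, Foxp3-positive cells held less Fos (26.6 against 87.2 CPM) and Jun (61.7 against 135 CPM) than in PD1+CTLA4, and less Fos than in CD40+CTLA4 (122 CPM). Of all genes, 2.89% passed against PD1+CTLA4 and 4.98% against CD40+CTLA4.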

How the data were processed

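The authors' deposited files hold raw UMI counts per gene and barcode for 5 pooled libraries, 1 per group and 3 mice each. Per the file headers, PBS was counted with Cell Ranger 4 and the other libraries with cellranger-7.1.0, and mm9 is the build in the submitters' processing notes; the sources used here give no annotation version. Promoters come from RefSeq (GRCm38.p6), whose coordinates are not those of mm9.

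Barcodes with at least 500 UMIs, 300 genes and at most 10% mitochondrial UMIs were used. T cells had at least 2 T cell receptor or Cd3 UMIs, 1 or more on Cd3, with at most 0.2% macrophage and at most 0.2% keratin UMIs; NK cells had the same limits. CD8, Foxp3-positive and other CD4 cells were split by Cd8a or Cd8b1, Foxp3 and Cd4; NK cells by Ncr1, Klre1, Klrb1c and Eomes without Cd3; mature dendritic cells by 4 UMIs on at least 2 of Ccr7, Fscn1, Ccl22 and Il4i1, and type 2 cells by Cd209a. Gate genes are therefore no result. Doublets were not removed in the main analysis; an alternative removed the top Scrublet scores, at 0.8% of cells per 1000 cells.

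Counts were summed per class and library (at least 50 cells) and scaled to CPM; log2 differences used CPM plus 5. Poisson, conditional and Clopper-Pearson intervals are at 95%. Contrasts of classes within libraries used the exact sign-flip permutation test over libraries with Benjamini-Hochberg adjustment over 28 tests; where all p-values are at their floor, no adjusted value can pass 0.05. Of each list, up to 4 genes with the largest ratios per comparison, and the 3 genes most correlated with each member, could be named (a few items are not reported here); Il7r and Jak levels across libraries, the top Il2 cells, Ikzf2 and Ctla4 in other CD4 cells, the motifs and the mature dendritic cell genes in T cells were chosen after values were seen. The members and lists were chosen with earlier results of these data known. The 2-fold rule was tried on simulated Poisson counts of class sums. These hold no spread between cells, so the trial does not cover values carried by single cells. Python 3.11.15, numpy 2.4.6, scipy 1.17.1, Scanpy 1.11.5 and, for TMM scaling, edgeR 4.0.16 were used.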

Additional observations from a re-analysis of the deposited data

How the results depend on the processing

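Over the alternatives, 441 values of class contrasts kept their direction and 14 did not; of the log2 ratios, 308 stayed within their counting error, 26 moved and 2 reversed. The Il2rg difference between Foxp3-positive and other CD4 cells (0.08) turned to -0.044 with classes from clusters, -0.039 with foreign shares up to 0.1%, -0.0089 without T cells holding mature dendritic cell genes and -0.00073 with 30 cells, and ran from -0.027 to 0.17 as each library was left out. Stat5a in NK against CD8 cells (0.41) became -0.50 with clusters and -0.39 with 30 cells. Il2rb in mature against type 2 dendritic cells (0.01) became -0.051 with the 3-UMI T cell gate, -0.058 as a mean over cells, -0.49 after thinning, -0.17 with a pseudocount of 1 and -0.12 to 0.16 as libraries were left out. Stat5b there became -0.75 after thinning. In a single random thinning, Il2 in CD8 cells of Triplet against PD1+CTLA4 was -0.10, and Cish in CD8 cells of PD1+CTLA4 against PBS 0.055. Shares of cells from a separate thinning kept the unthinned direction. They were 4.35% in Triplet and 1.27% in PD1+CTLA4 for Il2, and 2.54% in PD1+CTLA4 and 6.38% in PBS for Cish. The cause was not tested.

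Counts of members past 2-fold moved as follows. Triplet against PD1+CTLA4 went from 1 to 2 as a mean over cells. PD1+CD40 against PD1+CTLA4 went from 2 to 1 under 8 alternatives (1000 UMIs and 500 genes, the 3-UMI gate, 0.1%, mean over cells, thinning, doublet scores, mature dendritic cell genes, pseudocount 20) and to 4 with clusters or 30 cells; the Il2ra log2 ratio stayed at 1 or above under 3 of 12 alternatives. CD40+CTLA4 against PD1+CTLA4 went from 2 to 1 (0.1%, pseudocount 20) or 0 (doublet scores, mature dendritic cell genes), where other CD4 cells numbered under 50. Triplet against PD1+CD40 went from 1 to 0 (3-UMI gate, thinning, doublet scores, mature dendritic cell genes, TMM, pseudocount 20), 2 (pseudocount 1), 4 (clusters) or 6 (30 cells). Triplet against CD40+CTLA4 went from 2 to 1 (0.1%, thinning, doublet scores, mature dendritic cell genes). The 30-cell minimum and the removal of cells with mature dendritic cell genes were chosen after seeing the data. No paired analysis between groups was possible because each group has 1 library. The contrasts of classes were paired within libraries. Il2 in T cells of PD1+CD40 and CD40+CTLA4 rests on 5 and 4 UMIs.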

Other observations

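The T cells richest in Il2 differed in the cytokines they held with it. The PD1+CTLA4 cell with 158 Il2 UMIs (2.45% of its 6441 UMIs) also held 528 UMIs of Ifng, the gene of interferon gamma, and the PD1+CTLA4 CD8 cell with 17 Il2 UMIs held 483. In Triplet the CD8 cell with 27 Il2 UMIs held 11 Ifng UMIs. A Triplet T cell outside the gated classes, with 12 Il2 UMIs, held 186 UMIs of Csf2, the gene of the growth factor GM-CSF, and 0 of Ifng. None of these 4 cells was among the top doublet scores. They are single cells, chosen after their values were seen.

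Across 25 combinations of class and library with at least 50 cells, which share libraries and depth, the genes most like Il2ra among 8029 searched were Ikzf4 (Pearson r = 0.94), Itgb8 (0.93) and Tnfrsf1b (0.90). For Il2rb they were Gimap5 (0.99), Sh2d2a (0.98) and Ikzf3 (0.98), and for Cish they included Kcnn4 (0.87) and Tnfrsf25 (0.86). Il2rb and Il2rg correlated at 0.78, Il2ra and Cish at 0.60, and Il2 and Il2ra at -0.09. In Foxp3-positive cells with an Il2ra UMI, Socs2, another STAT5 target, was 2.57, 2.16, 1.14, 2.46 and 1.20 times its level in those without one in PBS, PD1+CTLA4, PD1+CD40, CD40+CTLA4 and Triplet. The interval lay above 1 in PBS (1.43 to 4.85) and PD1+CTLA4 (1.33 to 3.61). It included 1 in PD1+CD40 (0.49 to 3.08), CD40+CTLA4 (0.60 to 21.6) and Triplet (0.70 to 2.12). Cells with an Il2ra UMI were the deeper ones in each library. Split in the same way, Gzmb, from the list of response genes, was 0.65, 1.49, 2.39, 0.53 and 1.20 times. Tnfrsf4, outside the lists, was 1.64, 1.30, 1.05, 1.25 and 1.25 times, and Stat5b 0.79, 0.76, 0.67, 1.29 and 0.65 times. Whether the Socs2 values are particular to STAT5 targets was not tested.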
